A study of Mus musculus with 40 samples.

Results

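Control clones 6, 7 and 8 were compared with the other 8 unmodified control clones of a knockout study in mpkCCD cells, an immortalized mouse cell line of the kidney collecting duct. The 3 libraries were taken by the replicate number in their titles, and are 3 of 11 control clone libraries, of 22 libraries with a column in the table and of 40 samples in the whole series. The reference libraries were control clones 1 to 5 (n = 5) and control clones 9 to 11 (n = 3). All 11 libraries carry the genotype label WT and had the same treatment, 0.1 nM dDAVP for 72 hours. dDAVP, or 1-desamino-8-D-arginine-vasopressin, is an analogue of the antidiuretic hormone that raises Aqp2 in collecting duct cells. Cells had been polarized on permeable supports, for 4 days in complete medium and then for 3 days in simple medium with 50 nM dexamethasone, sodium selenite and transferrin, and dDAVP was present in the simple medium. The groups therefore shared genotype, line, medium, hormone and duration, and differed in clone and in library number, which is 1 to 5 for the first clones, 11 to 13 for clones 6 to 8 and 17 to 19 for the last. Clone, culture, RNA extraction and library preparation cannot be told apart in this comparison, and no label calls the runs of numbers a batch. A clonal line is a limited model of the tissue, and nothing states that replicates came from separate cultures, so p-values measure only the spread between these libraries.

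Protein output of a cell depends on ribosomes, which are built from ribosomal RNA and a set of small ribosomal proteins made in near equal numbers. Their mRNAs are short and abundant, and most begin with a run of pyrimidines that ties their translation to growth signals. Mitochondria add a genome of their own, with ribosomal RNAs and a few respiratory chain subunits, while all other subunits of the chain and of the mitochondrial ribosome are encoded in the nucleus. Immediate early genes such as Fos and Jun are transcribed within minutes of a stimulus and have unstable mRNAs. Expression is given as TPM, the usual transcript abundance unit, which corrects for transcript length and sums to the same total in every library, so that a gain of one class is a loss of others. Changes are differences of log2(TPM + 1), clones 6 to 8 minus the other 8. They are given as deposited and after median-ratio scaling, in which each library is divided by its median ratio to the genes' geometric means.

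Short transcripts stood out among the genes that were higher in clones 6 to 8. The 3 coding sequences shown set this pattern beside a short coding sequence on a long transcript. Rpl41 encodes a small ribosomal protein, S100a6 encodes a calcium-binding protein, and Serp1 encodes a small membrane protein of the endoplasmic reticulum. Each line gives the coding sequence of an annotated principal transcript (GENCODE M21), 5′ to 3′, with the start and stop codons in capitals.
Rpl41: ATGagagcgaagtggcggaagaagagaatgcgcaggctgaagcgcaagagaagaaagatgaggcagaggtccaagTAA
S100a6: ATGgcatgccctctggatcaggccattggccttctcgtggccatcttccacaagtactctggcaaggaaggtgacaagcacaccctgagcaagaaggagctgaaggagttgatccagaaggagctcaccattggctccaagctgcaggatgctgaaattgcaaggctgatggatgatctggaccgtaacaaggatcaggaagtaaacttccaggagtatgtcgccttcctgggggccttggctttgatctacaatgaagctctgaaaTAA
Serp1: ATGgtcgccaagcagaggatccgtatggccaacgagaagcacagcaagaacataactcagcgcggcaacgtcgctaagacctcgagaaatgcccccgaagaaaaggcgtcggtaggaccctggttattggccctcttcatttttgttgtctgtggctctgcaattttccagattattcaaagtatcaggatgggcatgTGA

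The coding sequences are 78, 270 and 201 nt long, and the transcripts they come from are 582, 731 and 4611 nt. On GRCm38 the genes lie at chr10:128548114-128549305 (Rpl41, minus strand), chr3:90612882-90624181 (S100a6, plus strand) and chr3:58519817-58525892 (Serp1, minus strand). S100a6 was at 15566, 11903 and 16832 TPM in clones 6, 7 and 8, against a lowest value of 1523, a median of 2524 and a highest value of 3849 TPM in the other 8. Every library of clones 6 to 8 was above every other library, the mean was 5.64-fold higher, and the log2 change was 2.53 (SE 0.22, limma adjusted p 1.34e-07) and 4.17 after scaling. Serp1, whose coding sequence is as short but whose transcript is long, was at 25.9, 20.7 and 27.9 TPM against 141 to 193 TPM (median 172). It was 6.71-fold lower, with a log2 change of -2.70 (limma adjusted p 2.25e-10) and of -1.09 after scaling. Serp1 was chosen for this contrast after its values were seen.

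Most genes differed between clones 6 to 8 and the other control clones. Among the 13334 genes that averaged 1 TPM or more in the 11 libraries, 11317 passed the test (84.9%; limma, Benjamini-Hochberg adjusted p under 0.05), 1820 of them higher (13.6%) and 9497 lower (71.2%). The median log2 change over all genes tested was -1.34, and scaling moved it by 1.33 to -0.02. After scaling 9379 genes passed (70.3%), 4850 higher (36.4%) and 4529 lower (34%). Lower genes made up 83.9% of the calls unscaled, 48.3% after median-ratio scaling and 60.3% after quantile normalization. All 1820 genes called higher and 4529 of those called lower were called in the same direction in both fits, while 1621 were lower unscaled and higher scaled.

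The 3 libraries resembled each other closely, and 1 of the reference libraries, clone 3, stood apart in very short genes. Of 186 tested genes under 200 nt it listed 182 at 0, against 112 to 145 in the other 10 libraries, and without it 11407 genes were called. Pearson correlations of log2(TPM + 1) over 13334 genes were 0.974 to 0.978 among clones 6 to 8, 0.948 to 0.976 among the other 8 and 0.778 to 0.827 between the groups, as a description across genes of libraries of unknown depth. In 10518 genes (78.9%) the 3 libraries did not overlap the other 8, with all 3 above in 1531 (11.5%) and all 3 below in 8987 (67.4%). The 100 most abundant genes took 34.3% to 36.4% of the TPM in clones 6 to 8 and 14.6% to 16.7% in the others. Clones 9 to 11 against clones 1 to 5 gave 342 called genes of 13375 (2.56%), 177 higher (1.32%) and 165 lower (1.23%) in clones 9 to 11. Without clone 2, 4, 5, 9, 10 or 11 that count was 101, 177, 97, 21, 106 or 32. Against clones 1 to 5 only, clones 6 to 8 differed in 11214 genes (84.1%), and against clones 9 to 11 only in 11392 (85.4%).

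**Figure D1:**
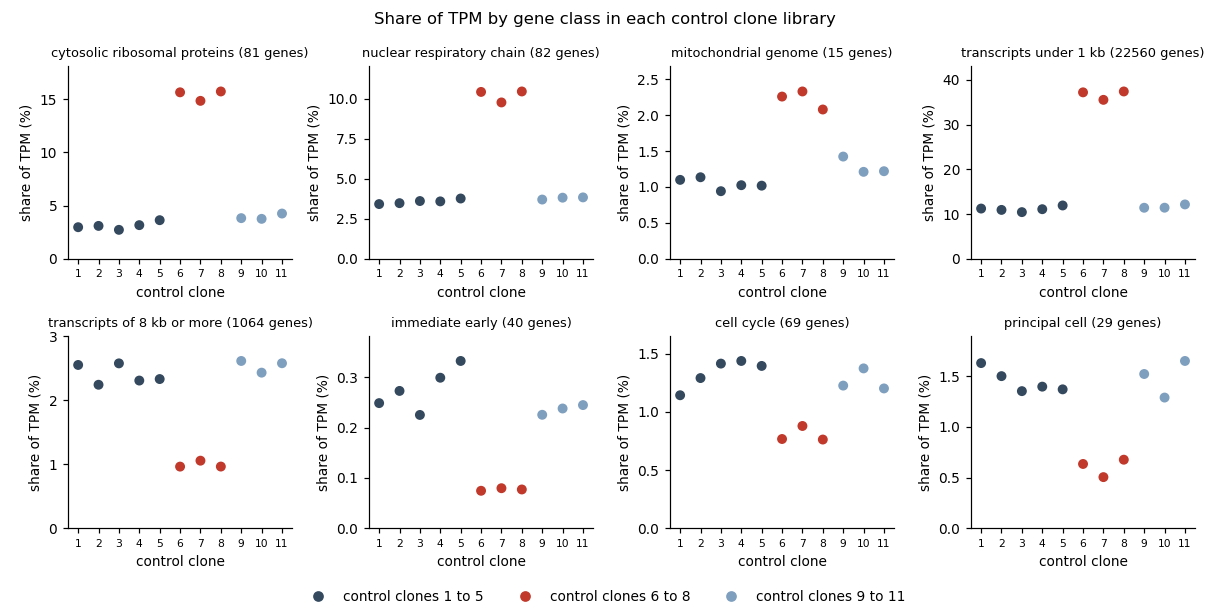
Share of all TPM (percent, linear axes from 0) held by 8 gene classes in each of the 11 control clone libraries; each point is 1 library. Cytosolic ribosomal proteins held 14.9% to 15.7% in clones 6 to 8 and 2.72% to 4.25% in the other 8, and in each of the 8 classes shown the points of clones 6 to 8 lie outside the range of the others.

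Genes of the cytosolic ribosome were the class with the largest gain of TPM among the lists. The 81 ribosomal protein genes held 15.7%, 14.9% and 15.7% of the TPM in clones 6, 7 and 8, against a lowest share of 2.72%, a median of 3.40% and a highest of 4.25% in the other 8. The groups did not overlap, and the mean share was 15.4% ± 0.489 (SD, n = 3) against 3.42% ± 0.518 (SD, n = 8), or 4.50-fold. All 81 were tested, and 78 were called higher, 1 lower and 2 neither, where 13.6% of all genes were called higher. Their median log2 change was 2.26, against -1.34 over all genes tested, and after scaling all 81 were called higher with a median of 3.91. The rise covered both subunits of the ribosome, with 44 of 47 large subunit genes (median 2.16) and 33 of 33 small subunit genes (median 2.35) called higher, a split by name made after the values were seen.

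Rps12, a small subunit protein, was at 1875, 1708 and 1961 TPM in clones 6, 7 and 8 and at 94.3 to 263 TPM (median 183) in the other 8. It had the largest rise of the list, 10.1-fold with no overlap (log2 change 3.40, SE 0.26, limma adjusted p 3.95e-08; 5.04 scaled). Rpl41, the smallest protein of the large subunit, was at 7014, 6154 and 7230.1 TPM against 721 to 1241 TPM (median 983), a 7.18-fold difference. Rpl32, among the most abundant members on this per-length scale, was 4.24-fold higher. Rpl4, whose coding sequence of 1260 nt is the longest of the list, was the member called lower, at 399, 391 and 390.4 TPM against 677 to 894 TPM (median 766). Its log2 change was -0.95 (limma adjusted p 4.02e-07), and it turned to 0.69 after scaling. Rpl3 and Rplp0, the large subunit proteins not called (Rplp0 was called lower under quantile normalization, -0.64, and both higher after scaling), have coding sequences of 1212 and 954 nt, while the 78 members called higher have 141 to 909 nt (median 452), each by the longest coding sequence annotated for the gene, which for Rpl41 is longer than the principal one shown. Against tested protein-coding genes of the same transcript length class the list's median stood 1.80 higher, and against those of the same coding length class 2.08 higher. Ribosomal protein genes have many processed copies in the genome, and Rps12, Rpl32 and Rpl4 hold small RNA genes within their bounds, so reads could be split between them and these genes.

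The start sites of ribosomal protein genes are shown because a pyrimidine run at the start is known for this class of mRNA, though not every annotated start has one. Each line runs from 40 bases before an annotated start to 20 bases from it (RefSeq, GRCm38.p6), 5′ to 3′ on the gene's strand. The longest run of C and T within 20 bases on either side is in capitals. Where a gene has several annotated starts, the start with the longest run was taken. The first lines are examples of ribosomal protein genes with long runs (21, 20 and 20 bases), and the last are Eef1a1 and Tpt1. The ribosomal protein genes shown were taken by rank of run length, after the genes of a chromosome were left out. They are therefore not typical of the class, and may not hold its longest runs.
Rpl7a: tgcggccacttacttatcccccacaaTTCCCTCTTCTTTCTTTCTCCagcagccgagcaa
Rpl34: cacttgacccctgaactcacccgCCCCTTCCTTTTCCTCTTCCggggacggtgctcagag
Rpl27a: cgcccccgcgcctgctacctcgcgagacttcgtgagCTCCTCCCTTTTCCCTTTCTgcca
Eef1a1: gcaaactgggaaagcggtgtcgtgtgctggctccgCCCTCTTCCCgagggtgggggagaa
Tpt1: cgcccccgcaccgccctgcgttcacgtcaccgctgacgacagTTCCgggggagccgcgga

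These windows are chr2:26910767-26910826 (Rpl7a, plus), chr3:130730318-130730377 (Rpl34, minus), chr7:109519155-109519214 (Rpl27a, plus), chr9:78481705-78481764 (Eef1a1, minus) and chr14:75845216-75845275 (Tpt1, plus). The Eef1a1 and Tpt1 windows lie inside the bounds of these genes in GENCODE M21 (chr9:78478449-78489151 and chr14:75845093-75848525). Their mRNAs may start elsewhere, so the runs marked there need not be those of the mRNA. Only the gene's own strand was searched, since a run of this kind belongs to the mRNA's start. Each gene was counted by its annotated start with the longest run, so genes with more starts had more chances of a run. These starts may not be those used in these cells, which limits the shares and medians below. A run of at least 8 was present at 31 of the 60 ribosomal protein genes with an entry (51.7%). It was present at 18.4% of all 27025 genes in the table of starts and at 18.9% of the tested genes found there. The ribosomal protein genes with such a run had a median log2 change of 2.28 (31 genes) and those with a shorter run 2.21 (29 genes). Among translation factors the medians were -1.47 with such a run (7 genes) and -0.39 without (26 genes), and among all tested genes -1.38 and -1.51.

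Translation factors, which work with the ribosome but are mostly larger proteins, did not follow the ribosomal proteins. Of 41 tested, 9 were called higher and 23 lower, with a median of -0.45, and after scaling 27 were higher and 10 lower with a median of 1.19. Of all genes, 13.6% were called higher and 71.2% lower unscaled, and 36.4% and 34% after scaling. Tpt1, a short growth-related mRNA of this list, was at 1596, 1693 and 1459 TPM against 155 to 395 TPM (median 303) and was 5.28-fold higher (limma adjusted p 4.04e-07). Eif1, a small factor of start codon choice, was 2.03-fold higher, at 2187, 2423 and 2273 TPM against 1022 to 1241 TPM, but changed by -0.11 under quantile normalization (adjusted p 0.306). Eef1a1, which carries aminoacyl-tRNA to the ribosome, was at 898, 896 and 900.1 TPM against 1538 to 1970.2 TPM (median 1747). It was lower in all 3 libraries (log2 change -0.95, limma adjusted p 1.17e-07), and higher by 0.69 after scaling. Gm26377, a miRNA gene of 108 nt within Eef1a1 on the same strand, was at 5538, 5546 and 5619 TPM against 0 to 2462 TPM (limma adjusted p 0.144). Reads could be split between these genes, which was not tested. Eif2s1, a subunit of the factor that brings the initiator tRNA, had the largest fall of the list, at 45.9, 48.6 and 40.1 TPM against 233 to 453 TPM (median 378). It was 8.27-fold lower on the TPM scale, and lower by 1.37 on the log2 scale after scaling. All 8 eIF4 factors, a subset picked after the values were seen, were called lower, with a median of -2.08, and 5 of them after scaling.

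The nuclear genes of the respiratory chain made the next gain. The 82 genes held 10.4%, 9.78% and 10.5% of the TPM in clones 6, 7 and 8, and 3.42% to 3.84% (median 3.66%) in the other 8, with means of 10.2% ± 0.388 (SD, n = 3) and 3.65% ± 0.155 (SD, n = 8). Of 77 tested, 61 were called higher, 15 lower and 1 neither (Sdhb), with a median log2 change of 1.71, and after scaling 68 were higher and 4 lower with a median of 3.35. By complex, a split made after the values were seen, complex I, which oxidizes NADH, had 32 of 37 tested members higher. Complex IV, which reduces oxygen, had 11 of 11 higher. ATP synthase had 13 of 17 higher, and complex III 5 of 8, where 13.6% of all genes were called higher. Of the 4 members of complex II, 3 were called lower (Sdha, Sdhc and Sdhd), a share near the 71.2% of all genes. The 61 members called higher had a median coding length of 363 nt and the 15 called lower of 1362 nt.

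Cox4i1, a structural subunit of complex IV, was at 5265, 5125 and 5228 TPM in clones 6, 7 and 8 and at 1016 to 1599 TPM (median 1370.2) in the other 8. It was 3.93-fold higher with no overlap (log2 change 1.99, limma adjusted p 4.88e-09). Ndufb4, an accessory subunit of complex I, had the largest rise, 5.09-fold, at 386, 379.8 and 386 TPM against 58.4 to 97.3 TPM. Atp5b, the catalytic beta subunit of ATP synthase, was at 1681, 1597 and 1722 TPM against 2739 to 4432 TPM (median 3311), lower by 1.04 on the log2 scale with no overlap and higher by 0.61 after scaling. Uqcrc1, a core protein of complex III, had the largest fall, at 68.5, 68.3 and 64.3 TPM against 313 to 394 TPM (median 342), and was lower on both scales (-2.35 and -0.72; limma adjusted p 1.96e-11 unscaled). Sdhd, a membrane anchor of complex II with a short coding sequence of 480 nt, was at 94.1, 120.1 and 91.0 TPM against 349 to 439.8 TPM, 3.73-fold lower. The list's median was 0.54 above that of protein-coding genes of the same transcript length class and 1.02 above those of the same coding length class.

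Mitochondrial ribosomal proteins rose in part. The 78 genes held 2.08% ± 0.0116 (SD, n = 3) of the TPM against 0.997% ± 0.0329 (SD, n = 8). Of them 48 were called higher, 22 lower and 8 neither (median 0.70), where 13.6% of all genes were called higher and 71.2% lower. After scaling 66 were higher and 5 lower, with a median of 2.33. The members called higher had a median coding length of 482 nt and those called lower of 962 nt. Mrpl52, a small protein of the large subunit, was at 1214, 1258 and 1220.3 TPM against 189 to 303 TPM, 4.92-fold higher, and Mrpl37, a larger one, was at 22.1, 21.8 and 20.7 TPM against 80.4 to 98.8 TPM, 4.20-fold lower.

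Of the mitochondrial genome, the ribosomal RNAs gained most. The 15 genes held 2.26%, 2.33% and 2.08% of the TPM in clones 6, 7 and 8 and 0.941% to 1.42% (median 1.12%) in the others, with no overlap. Only 9 of the 15 averaged 1 TPM or more, of which 6 were called higher (mt-Nd1, mt-Nd2, mt-Nd4, mt-Nd6, mt-Rnr1 and mt-Rnr2), 1 lower (mt-Nd5) and 2 neither, and all 9 were higher after scaling. Of all genes, 13.6% were called higher unscaled and 36.4% after scaling. mt-Rnr2, the large ribosomal RNA, was at 7954, 8258 and 7458 TPM against 572 to 1534 TPM (median 1073), 7.84-fold higher (log2 change 3.04, limma adjusted p 9.34e-08). mt-Rnr1, the small ribosomal RNA, was 10.3-fold higher, at 1578, 1468 and 1294 TPM against 103 to 184 TPM. Both together held 0.934% ± 0.0515 (SD, n = 3) against 0.115% ± 0.0354 (SD, n = 8).

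The 13 mitochondrially encoded mRNAs held 1.29% ± 0.0783 (SD, n = 3) of the TPM against 1.02% ± 0.176 (SD, n = 8), a ratio of 1.26. Of these, mt-Co2, mt-Co3, mt-Atp6, mt-Atp8 and mt-Nd4l are listed at 0 in all 11 libraries and mt-Nd3 averaged under 1 TPM. They are genes that every cell uses, so a 0 in this table can be a failed estimate, and the share is that of the other members. mt-Nd1, a complex I subunit, was at 3685, 3575 and 3493 TPM against 1940.1 to 3335 TPM (median 2559), higher by 0.48 on the log2 scale (limma adjusted p 0.00354) and lower by 0.82 under quantile normalization. mt-Nd5, the longest of these mRNAs, was at 179, 198 and 147 TPM against 274 to 376 TPM, with changes of -0.86 unscaled and 0.78 scaled, and overlaps mt-Nd6 on the other strand. mt-Co1, a catalytic subunit of complex IV, was at 1801, 1952 and 1779 TPM, within the 1707 to 3114 TPM of the other 8 (log2 change -0.31, limma adjusted p 0.0955). It was called lower under quantile normalization (-1.47, adjusted p 2.88e-06), without clone 5 (adjusted p 0.0392) and against clones 9 to 11 only (adjusted p 2.45e-04), and higher after scaling (1.33, adjusted p 1.4e-05). mt-Cytb, the complex III subunit, also overlapped, with a change of -0.10 (adjusted p 0.563) that was 0.09 against clones 1 to 5 only and -0.42 against clones 9 to 11 only (adjusted p 0.00532). It was -1.41 under quantile normalization (adjusted p 2.61e-05) and 1.54 after scaling (adjusted p 2.82e-06). Lars2, the nuclear gene of the mitochondrial leucyl-tRNA synthetase, was at 9416, 9538 and 8546 TPM against 525 to 1030 TPM (median 679). Its 12.2-fold rise (log2 change 3.66, limma adjusted p 3.86e-09) stood 5.43 above the median of genes of its transcript length class. Gene-level values do not show which part of Lars2 the reads came from, or whether they came from its mRNA, which was not tested.

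**Figure D2:**
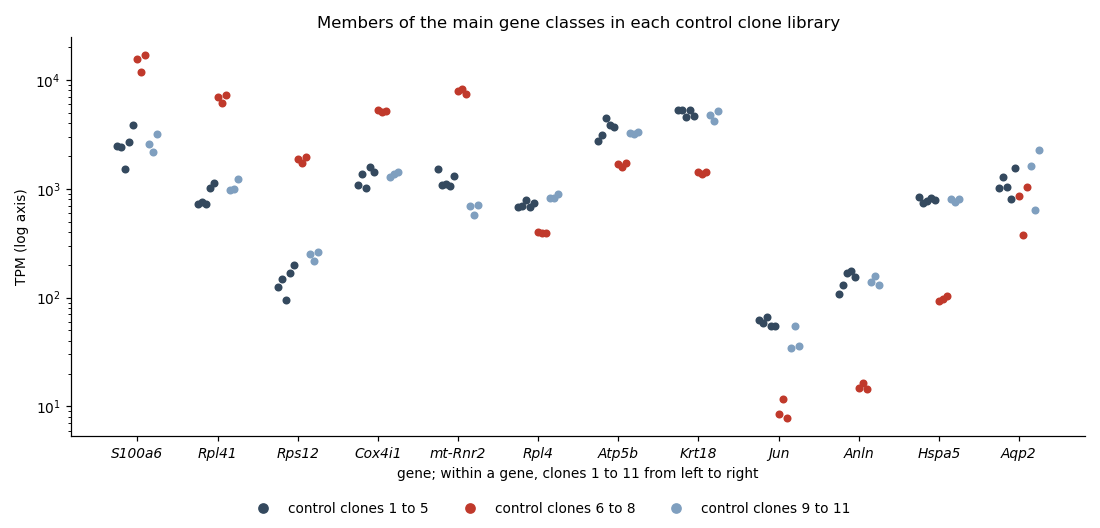
TPM (log axis) of 12 genes in each of the 11 control clone libraries; within a gene the clones run from 1 to 11 from left to right and each point is 1 library. Clones 6 to 8 lie above all others for S100a6, Rpl41, Rps12, Cox4i1 and mt-Rnr2, below all others for Rpl4, Atp5b, Krt18, Jun, Anln and Hspa5, and within the range of the others for 2 of 3 libraries of Aqp2; after median-ratio scaling Rpl4 and Atp5b turn to higher (0.69 and 0.61).

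The make-up of the whole difference was read from the means of each gene. The 7923 genes with a higher mean TPM in clones 6 to 8 gained 49.99 percentage points of all TPM, and the 19301 genes with a lower mean lost as much. Cytosolic ribosomal proteins made up 24.1% of the gains, the nuclear respiratory chain 14.0%, the mitochondrial genome 2.37% and mitochondrial ribosomal proteins 2.34%. Other genes with a longest transcript under 1 kb made up 27.0% of the gains and other genes of 1 to 2 kb 15.3%. Of the losses, other genes of 2 to 4 kb made up 49.2%, of 4 to 8 kb 25.8%, of 1 to 2 kb 19.5% and of 8 kb or more 3.15%. The gains were concentrated, with 50% of them in 95 genes, while 50% of the losses were spread over 1039 genes. The largest gains were S100a6 (1.21 points), Lars2 (0.841 points), mt-Rnr2 (0.688 points), Wfdc2, a secreted epithelial protein (0.679 points), and Mt1, the metal-binding metallothionein (0.659 points). The largest loss was Krt18, an epithelial keratin (-0.349 points), followed by the glycolytic gene Pkm (-0.185 points), Atp5b (-0.179 points) and the actin gene Actb (-0.164 points). The shares of gains and losses differed by at most 1 percentage point when clones 1 to 5 or clones 9 to 11 alone were the reference.

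**Figure D3:**
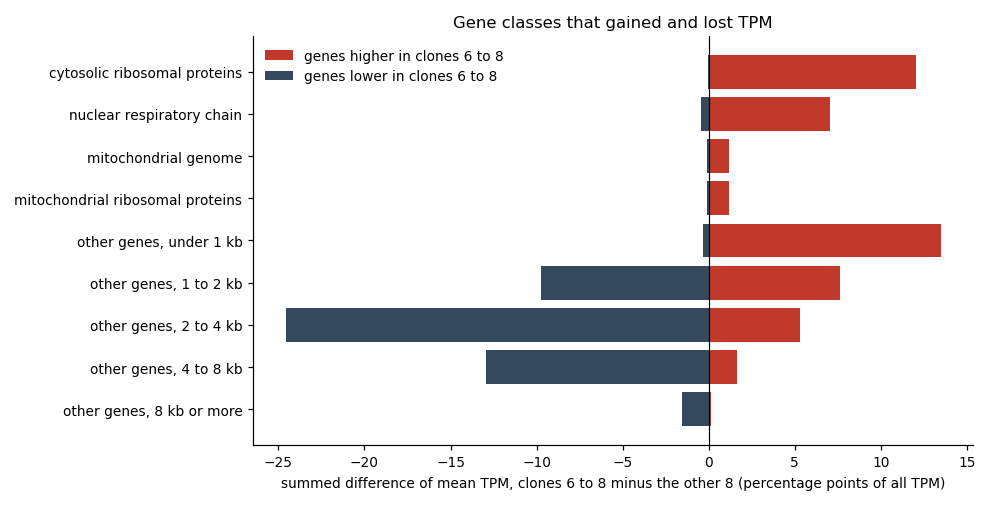
Percentage points of all TPM gained (right) and lost (left) in clones 6 to 8 against the mean of the other 8 control clones, by gene class; genes outside the 4 named classes are split by the length of their longest annotated transcript, and genes without a length are left out. Ribosomal proteins gained 12.0 points and other genes under 1 kb 13.5 points, while most losses lie in other genes of 2 to 8 kb.

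Change followed transcript length in protein-coding genes, though not in a straight line. Genes whose longest annotated transcript is under 1 kb held 36.7% ± 1.03 (SD, n = 3) of the TPM in clones 6 to 8 and 11.3% ± 0.545 (SD, n = 8) in the others. Of all 1607 tested genes of that length, 794 were called higher and 237 lower (median 0.79). Of the 520 protein-coding genes among them, 425 were called higher and 16 lower (median 1.44). The 586 processed pseudogenes tested had a median length of 554.5 nt and a median change of -0.43 (0.68 after scaling). Of these, 147 were called higher and 234 lower, where 13.6% and 71.2% of all genes were. Of 4621 protein-coding genes of 2 to 4 kb, 284 were called higher and 3989 lower (median -1.77). In finer classes of protein-coding genes the median was 1.63 at 500 to 750 nt, 1.31 at 750 to 1000 nt, -0.24 at 1000 to 1500 nt and lowest at 3000 to 4000 nt (-1.85). Ribosomal and respiratory genes did not make up the short class alone, since 429 protein-coding genes under 1 kb outside those lists had a median of 1.28, with 334 called higher. The measure of length mattered: when a gene's length was the median over its annotated transcripts, the class under 1 kb held 5576 genes with a median of -0.95.

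Transcripts of 8 kb or more lost share but were not the most affected. The 1064 genes held 0.963%, 1.06% and 0.964% of the TPM in clones 6, 7 and 8, against 2.24% to 2.61% (median 2.49%) in the others. Of 603 tested, 31 were called higher and 493 lower (81.8%, against 71.2% of all genes), with a median of -1.27, which turned to 0.16 after scaling, where 225 were higher and 153 lower. The median was -1.32 at 8000 to 12000 nt and -0.95 at 12000 nt or more, less negative than at 3000 to 4000 nt. Syne2, which encodes a giant protein that links the nuclear envelope to the cytoskeleton, was at 460.4, 526 and 451 TPM against 1054 to 1850 TPM (median 1377), a change of -1.53 unscaled and of 0.12 scaled (limma adjusted p 0.49). App, the amyloid precursor gene, was at 268.6, 263 and 276 TPM against 1045 to 1676 TPM and was lower on both scales (-2.16 and -0.52). Nom1, a nucleolar protein gene with the largest fall of this class, was at 2.81, 4.64 and 2.62 TPM against 27.5 to 42.0 TPM, 11.3-fold lower.

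Coding and noncoding parts were then separated. By coding length the median change fell from 1.32 under 300 nt and 0.30 at 300 to 600 nt to -1.37 at 600 to 1200 nt and -1.86 at 1200 to 2400 nt, and was -1.68 above. Among genes with coding sequences under 600 nt, the median was 1.57 where the rest of the longest transcript was at most 300 nt and -0.69 where it was over 4000 nt, the kind of gene Serp1 stands for. Across 11212 protein-coding genes Spearman's rho of the change was -0.27 with transcript length, -0.35 with coding length and 0.13 with GC content, as descriptions over genes that share the same libraries. In 5 equal classes of GC content the medians ran from -1.49 to -1.21.

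**Figure D4:**
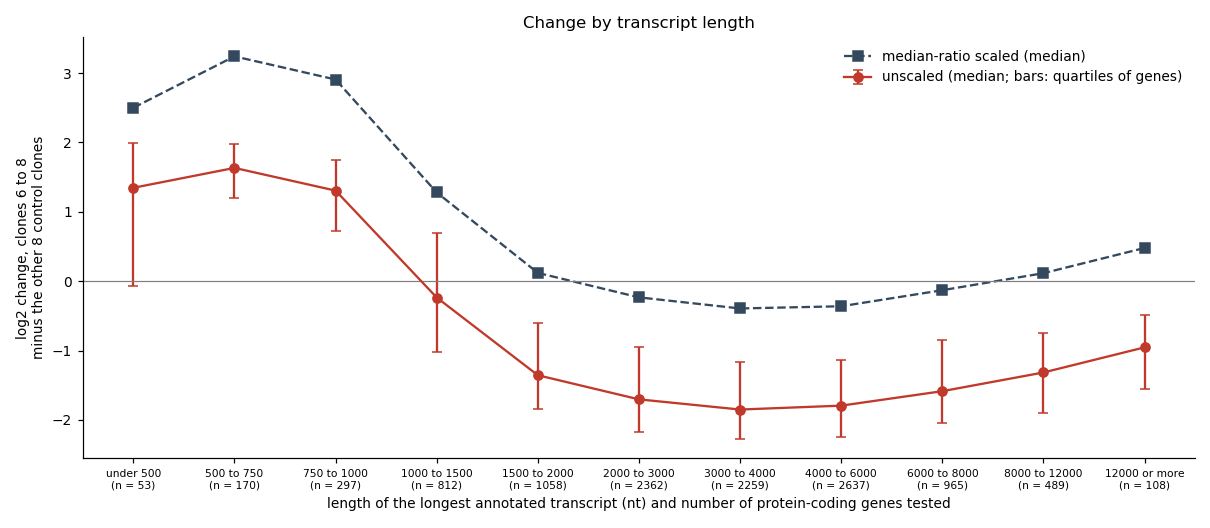
Median log2 change of protein-coding genes, clones 6 to 8 minus the other 8 control clones, by length class of the longest annotated transcript (nt); circles are unscaled medians with the quartiles of genes as bars, squares are medians after median-ratio scaling. Short classes lie highest and the class of 3000 to 4000 nt lowest; at 12000 nt or more the unscaled median is -0.95 and the scaled one 0.48, so that the sign of the longest classes depends on the scaling.

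Immediate early genes were lower in clones 6 to 8, about as far as genes of their length. The 40 listed genes held 0.0744%, 0.0795% and 0.0770% of the TPM against 0.225% to 0.332% (median 0.247%), without overlap. Of 37 tested, 32 were called lower and 5 were not called (Egr3, Gadd45b, Ier3, Rhob and Zfp36l1), where 71.2% of all genes were called lower, with a median of -1.69 and a highest change of -0.04. After scaling 7 were higher, 12 lower and 18 not called, with a median of -0.17, so that the direction of the list is not held by the scaling. The median stood -0.13 from that of protein-coding genes of the same transcript length class and -0.36 from that of the same coding length class.

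Jun and Fos encode partners of the AP-1 transcription factor. Jun was at 8.52, 11.8 and 7.83 TPM in clones 6, 7 and 8 and at 34.2 to 66.5 TPM (median 55.1) in the others, lower on both scales (-2.36 and -0.80; limma adjusted p 1.14e-07 and 0.0021). Fos was at 8.37, 9.58 and 7.54 TPM against 25.5 to 49.9 TPM (median 28.4), a change of -1.76 (adjusted p 7.28e-07) that was -0.22 after scaling (adjusted p 0.294). Egr1, a zinc finger factor, and Myc, a growth regulator, were lower on both scales, by 5.47-fold and 5.27-fold in TPM. Ccn1, a secreted matrix protein gene, had the largest fall of the list, at 28.7, 28.8 and 36.4 TPM against 156 to 383 TPM (log2 change -2.85). Ier3, with the shortest transcript among these, was at 64.9, 57.0 and 67.5 TPM within the 32.2 to 90.4 TPM of the others. Its change was -0.04 (adjusted p 0.876), and 1.58 after scaling (adjusted p 1.54e-04). Jund, another AP-1 member, was 3.11-fold lower in TPM, with a scaled change of 0.04.

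Most cell cycle genes were called lower, and a few short ones higher. The 69 genes held 0.767%, 0.879% and 0.763% of the TPM against 1.14% to 1.44% (median 1.33%). All 69 were tested, of which 59 were called lower, 6 higher and 4 neither (Birc5, Ccnd1, Gins2 and Hmgb2), where 71.2% of all genes were called lower and 13.6% higher, with a median of -2.13, and after scaling 38 were lower and 20 higher with a median of -0.51. The 59 called lower had a median transcript length of 3586 nt and the 6 called higher of 1065 nt. The list's median was -0.41 from that of genes of the same transcript length class.

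Cks1b and Cks2 encode small proteins bound by cyclin-dependent kinases. Cks1b was at 1666, 1583 and 1757 TPM against 553 to 735 TPM (median 604), 2.65-fold higher, and Cks2 was 2.94-fold higher. Ube2c, a mitotic ubiquitin-conjugating enzyme, was at 532, 659 and 531 TPM against 334 to 447 TPM and was called higher (0.58), but not under quantile normalization (0.21, adjusted p 0.142). Dut, Stmn1 and H2az1 were also called higher. For H2az1, a histone variant gene whose groups overlapped (log2 change 0.31, limma adjusted p 0.0487), the call was lost without any 1 of clones 1, 2, 3, 6, 7, 8, 9, 10 or 11 (adjusted p 0.0566 to 0.133) and against clones 1 to 5 only (adjusted p 0.164). Under quantile normalization H2az1 was called lower (-0.51, adjusted p 0.00521). Anln, a scaffold of the contractile ring, had the largest fall, at 14.7, 16.3 and 14.4 TPM against 109 to 177 TPM (median 147), lower on both scales (-3.17 and -1.58; limma adjusted p 9.72e-11 unscaled). Mki67, whose transcript of 10061 nt is among the longest of the list, was at 11.4, 15.2 and 8.84 TPM against 25.3 to 38.5 TPM, a change of -1.35 unscaled and 0.21 scaled. Top2a, the DNA topoisomerase of mitosis, was lower by 1.27 on the log2 scale and higher by 0.36 after scaling. Mki67 and Top2a thus changed sign with the scaling, and Anln did not. Replication-dependent histones, whose usual mRNAs are short and lack a poly(A) tail, had 27 of 67 genes tested. Of these 12 were called higher, 4 lower and 11 neither, with a median of 0.93, where 13.6% of all genes were called higher. The histone median was -0.18 from genes of the same transcript length class and 0.68 from those of the same coding length class. H4c4 was at 121, 132 and 114 TPM against 9.73 to 78.6 TPM, and H2bc4 at 56.3, 62.0 and 53.6 TPM against 7.23 to 25.6 TPM. H2bc21, with the largest fall of these histones, was at 4.63, 5.21 and 4.17 TPM against 23.4 to 40.4 TPM (-2.52 unscaled and -1.04 scaled). The longest annotated transcripts of H4c4, H2bc4 and H2bc21 are 1138, 1156 and 2620 nt. Which form of these mRNAs was measured is not known.

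Chaperones of the endoplasmic reticulum and stress response genes were mostly lower, with a median below that of genes of their length. The list holds folding factors of that compartment and also genes of the amino acid and stress response such as Asns, Atf4 and Trib3. Of 26 tested, 24 were called lower, 1 higher (Manf) and 1 neither (Ddit3), where 71.2% of all genes were called lower, with a median of -2.13, which was -0.49 from genes of the same transcript length class. After scaling 15 were lower and 6 higher. Calr, a calcium-binding chaperone, was at 81.2, 78.1 and 82.6 TPM in clones 6, 7 and 8 and at 673 to 757 TPM (median 709) in the others. It was 8.81-fold lower on the TPM scale and lower on both log2 scales (-3.12 and -1.49; limma adjusted p 8.17e-12 and 1.74e-09). Hspa5, the main HSP70 of this compartment, was at 92.3, 96.2 and 103 TPM against 744 to 847 TPM, 8.12-fold lower. Among the largest falls over all genes were Rpn1, a subunit of the oligosaccharyltransferase, at 31.4, 32.6 and 37.1 TPM against 397 to 442 TPM, and Ccdc47, a membrane protein gene of the same compartment, at 12.3, 12.0 and 9.70 TPM against 128 to 182 TPM. They were 12.4-fold and 12.6-fold lower, and lower by 1.97 on the log2 scale after scaling in both cases. Manf, a small secreted stress protein, was at 354, 381 and 332 TPM against 128 to 179.8 TPM and was 2.47-fold higher.

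Sterol synthesis genes were mostly lower too. Of 25 cholesterol synthesis genes, 24 were called lower and 1 higher (Pmvk), where 71.2% of all genes were called lower, with a median of -2.07, and after scaling 15 were lower and 7 higher. Sc5d, a late enzyme of the pathway, was at 13.8, 14.3 and 14.6 TPM against 98.2 to 127 TPM (-2.88 and -1.30), whereas Fdps, the farnesyl diphosphate synthase, changed by -1.21 unscaled and by 0.43 scaled. Pmvk, a kinase of the mevalonate pathway with a coding sequence of 579 nt, was at 120.2, 116 and 124 TPM against 72.1 to 107 TPM.

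The proteasome was divided by subcomplex, a split made after the values were seen. Of 14 subunits of its proteolytic core 8 were called higher and 5 lower (median 0.48; 13 higher and 1 lower after scaling, median 2.13), while all 17 subunits of the regulatory particle were called lower (median -2.06; 12 lower and 3 higher after scaling). Of all genes, 13.6% were called higher and 71.2% lower. Proteasome members called higher had a median coding length of 720 nt and those called lower of 1170 nt. The whole list's median was -0.43 from genes of the same transcript length class and 0.15 from those of the same coding length class. Psmb6, a catalytic core subunit, was at 1704, 1645 and 1657 TPM against 752 to 990.1 TPM and was called higher (1.01), but changed by -0.06 under quantile normalization. Psmd2, a scaffold of the regulatory particle, was at 62.4, 73.0 and 69.8 TPM against 401 to 525 TPM, 6.74-fold lower and lower on both scales. Of 15 heat shock genes tested, 12 were called lower and 3 higher, a share of lower calls near the 71.2% of all genes, and after scaling 6 were lower, 4 higher and 5 not called, with a median of about 0. The higher ones were Hspe1, the small mitochondrial co-chaperonin (509, 519.7 and 503 TPM against 120.2 to 165 TPM), Hspb1 and Hsp90aa1. Hsp90aa1, the inducible HSP90, was 1.59-fold higher and changed by -0.38 under quantile normalization, and Hsp90ab1, the constitutive one, was 1.59-fold lower unscaled and higher by 0.98 on the log2 scale after scaling.

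**Figure D5:**
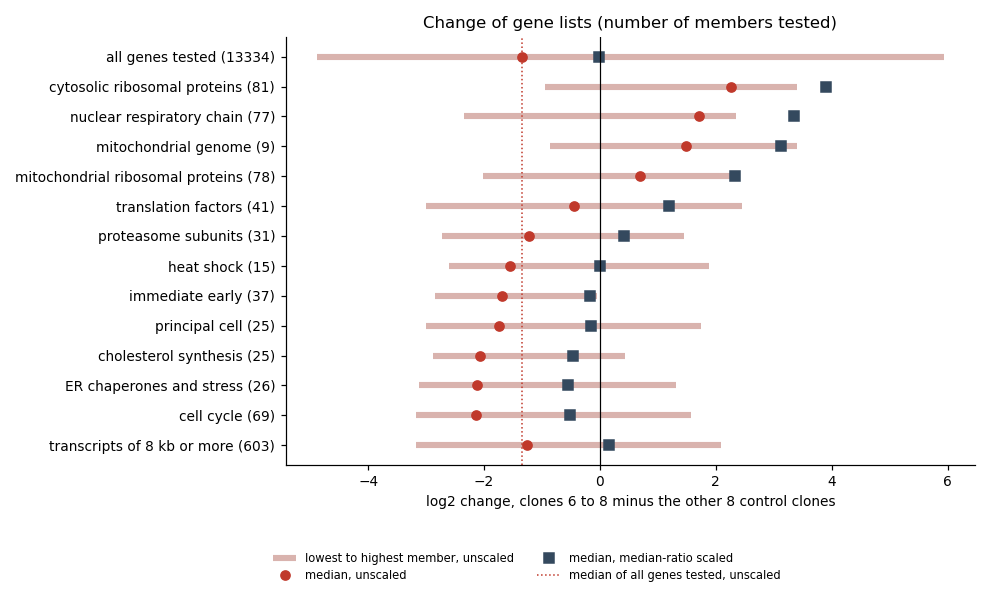
Log2 change, clones 6 to 8 minus the other 8 control clones, for all genes tested and 13 gene groups, with the number of members tested; bars run from the lowest to the highest member, circles are unscaled medians, squares medians after median-ratio scaling, and the dotted line is the unscaled median of all genes (-1.34). Ribosomal proteins (2.26) and the nuclear respiratory chain (1.71) lie highest on both scales, while with scaling translation factors turn from -0.45 to 1.19, proteasome subunits from -1.22 to 0.41 and long transcripts from -1.27 to 0.16.

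Principal cells are the collecting duct cells that carry Aqp2, and most of their markers were expressed in these libraries. The 29 listed genes held 0.634%, 0.504% and 0.676% of the TPM in clones 6, 7 and 8 and 1.29% to 1.65% (median 1.45%) in the others. Their summed level was 5041 to 6759 TPM in clones 6 to 8 and 12886 to 16495 TPM in the others, and Aqp4, Elf5, Kcnj1 and Scnn1b averaged under 1 TPM. Of 25 tested, 20 were called lower, 2 higher (Fxyd4 and Pax2) and 3 neither (Aqp2, Kcnj16 and Nr3c2), where 71.2% of all genes were called lower, with a median of -1.75, and after scaling 7 were lower and 7 higher with a median of -0.15. In bulk RNA, fewer cells of a type and less RNA per cell cannot be told apart.

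Aqp2, the water channel that vasopressin regulates, was at 855, 379 and 1029 TPM in clones 6, 7 and 8 and at 641 to 2279 TPM (median 1163) in the others. Clone 7 was the lowest of all 11 libraries, and the other 2 lay within the range. The change was -0.77 (SE 0.37, limma adjusted p 0.0666) unscaled and 0.87 (adjusted p 0.0634) scaled. It was called lower without clone 8 (-1.06, adjusted p 0.0394) or without clone 10 (-0.90, adjusted p 0.03), and under quantile normalization (-1.50, adjusted p 0.00106). Avpr2, the vasopressin receptor, was at 49.2, 37.0 and 50.5 TPM against 121 to 227 TPM (-1.96 unscaled; -0.34 scaled, adjusted p 0.145). Scnn1a, a subunit of the epithelial sodium channel, was 3.72-fold lower in TPM (-0.21 scaled, adjusted p 0.372). Fxyd4, a small regulator of the sodium pump, was at 1689, 958 and 1982 TPM against 228 to 852 TPM and was 3.22-fold higher, with clone 7 again the lowest of the 3, but was not called under quantile normalization (0.92, adjusted p 0.0554). Sgk1, a steroid-responsive kinase, was at 18.9, 29.0 and 11.9 TPM against 36.3 to 834 TPM (median 119), a change of -3.01 (adjusted p 0.00427) that was -1.41 after scaling (adjusted p 0.143). Krt18 was 3.48-fold lower in TPM (-1.79 unscaled; -0.15 scaled, adjusted p 0.232), and Cdh16, a kidney cadherin, changed by -1.10 unscaled and 0.55 scaled.

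Intercalated cell markers, of the acid and base transporting cells of the collecting duct, were expressed in part, and markers of cells outside the collecting duct were low. Of 17 intercalated cell markers 7 averaged 1 TPM or more, with 1 called higher, 2 lower and 4 neither, where 71.2% of all genes were called lower. The 17 summed to 76.3 to 89.6 TPM in clones 6 to 8 and 49.8 to 202 TPM in the others, and Atp6v1g3, Insrr, Kit and Oxgr1 were listed at 0 in all 11. Atp6v1b1, a proton pump subunit, was at 35.5, 32.3 and 32.8 TPM in clones 6, 7 and 8, at 14.4 to 35.4 TPM in clones 1 to 5 and at 80.0 to 103 TPM in clones 9 to 11. The 16 markers of other kidney segments summed to 6.67 to 12.7 TPM against 21.4 to 48.4 TPM, with Slc12a1, Slc34a1, Slc22a6 and Pvalb at 0 in all 11. The 17 markers of stroma, vessel and immune cells summed to 5.23 to 7.27 TPM against 5.32 to 13.2 TPM, with Col1a2, Cdh5, Adgre1, C1qa and Lyz2 at 0 in all 11. Their part in the results was not tested.

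The transcription factor genes that the study targeted were intact by label in all control clones. Creb1 was at 4.98, 6.69 and 4.99 TPM in clones 6, 7 and 8 and at 27.99 to 39.0 TPM (median 32.7) in the others, 5.99-fold lower without overlap and lower on both scales (-2.39 and -0.89; limma adjusted p 7.58e-10 and 1.6e-05). Its longest transcript is 8364 nt, and its change was -1.12 from the median of genes of that length class. Atf1 was at 23.3, 26.2 and 23.9 TPM against 37.8 to 48.9 TPM (median 40.2), a change of -0.73 (adjusted p 2.57e-06) that turned to 0.87 after scaling (adjusted p 4.44e-07). Crem, which overlaps a gene on the other strand, was at 9.08, 10.6 and 13.0 TPM against 13.6 to 24.9 TPM (median 19.8), a change of -0.77 that turned to 0.78 after scaling. A control library of clones 6 to 8 therefore held less Creb1 than each of the other control libraries on both scales, and less Atf1 and Crem only before scaling.

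Long noncoding RNAs were called in both directions, and mostly higher after scaling. Long noncoding RNA genes held 2.57% ± 0.0878 (SD, n = 3) of the TPM against 1.57% ± 0.218 (SD, n = 8), with 296 of 946 called higher and 315 lower, where 13.6% and 71.2% of all genes were. After scaling 625 were higher and 53 lower, against 36.4% and 34% of all genes. Gas5, the host of several small nucleolar RNAs, was at 799, 716 and 884 TPM against 181 to 288 TPM, 3.45-fold higher, and Tug1 was at 17.2, 17.9 and 13.9 TPM against 98.5 to 174 TPM, 8.10-fold lower. Malat1, an abundant nuclear RNA, was at 8709, 9143 and 10265 TPM within the 3124 to 10562 TPM of the others. Its change of 0.74 (adjusted p 0.0332) was not called without any 1 of clones 2, 3, 6, 7, 8, 9 or 11 (adjusted p 0.0502 to 0.113) or against clones 1 to 5 only (adjusted p 0.134), and was -0.18 under quantile normalization.

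Small RNAs were among the largest rises. A nucleolar RNA is shown because it was among the 5 largest rises by the rule for named genes and carries the boxes of its class. The first TGATGA and the last CTGA, searched on the transcript strand, are in capitals; 24.02% of the 1507 snoRNA transcripts of GENCODE M21 hold a TGATGA before a CTGA.
Snord118: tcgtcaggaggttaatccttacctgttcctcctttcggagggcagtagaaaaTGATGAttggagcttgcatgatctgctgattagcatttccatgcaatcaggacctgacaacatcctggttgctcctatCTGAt

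Snord118 (chr11:69073427-69073561, plus strand, GRCm38), also known as the U8 RNA, was at 208, 246 and 106 TPM in clones 6, 7 and 8 against 0 to 38.0 TPM (median 7.63; limma adjusted p 0.00258) in the others, with a change of 5.10, and of 4.77 without clone 3. Rnu4atac, a minor spliceosome RNA that overlaps other genes, was at 39.9, 108 and 96.3 TPM and at 0 to 29.4 TPM (median 0) in the others. Of 122 small nuclear and nucleolar RNA and ribozyme genes tested, 20 were called higher, 1 lower and 101 neither, and the share called higher was near the 13.6% of all genes. Genes under 200 nt held 1.03% to 1.10% of the TPM in clones 6 to 8, 0.294% to 0.41% in 7 of the others and 0.034% in clone 3.

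The largest rise of all genes tested was that of Fam166a, at 70.7, 135 and 109 TPM in clones 6, 7 and 8 and at 0 to 4.04 TPM in the others (log2 change 5.94, limma adjusted p 1.29e-07). Fam166a overlaps Tubb4b on the other strand. It lay outside the rule for named genes, which asks for a higher mean level, and was chosen after its values were seen. Like that of Fam166a, several other large changes lay in loci where genes overlap, and all are uncertain for that reason. Gm20390, which spans Nme1 and Nme2 on the same strand, was at 118, 188 and 165 TPM in clones 6, 7 and 8 and at 0 to 22.3 TPM (median 4.39) in the others. Moap1, an apoptosis modulator that overlaps Gm20604 and Gm28051, had the largest fall of all genes tested, at 0.36, 0.34 and 0 TPM against 23.7 to 43.5 TPM (log2 change -4.88, limma adjusted p 3.36e-11; -4.18 scaled). Tspan31, a tetraspanin gene on the other strand from Cdk4, was at 20.6, 23.5 and 20.6 TPM against 204 to 285 TPM (-3.38 and -1.78).

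Among themselves, clones 6 to 8 varied little. The median SD of log2(TPM + 1) over genes was 0.15 in the 3 libraries and 0.22 in the other 8. The other 8 join clones 1 to 5 and 9 to 11, whose library numbers lie apart, so these SDs are not a like comparison. Of 9616 genes with a mean log2 level of at least 3, clone 6 had 7 genes more than 1 above and 9 more than 1 below the mean of the other 2, clone 7 had 20 and 17, and clone 8 had 13 and 20. Clone 7 had the smallest shares of ribosomal proteins, the respiratory chain and short transcripts of the 3, and the largest of cell cycle genes and of transcripts of 8 kb or more. Between clones 9 to 11 and 1 to 5 the ribosomal proteins showed a median log2 difference of 0.35, with 6 of 81 called, against medians of 2.41 and 2.02 for clones 6 to 8 against each of them.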

How the data were processed

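Total RNA was reverse transcribed with a SMARTer V4 kit and amplified in 8 PCR cycles, and Nextera XT libraries were read from both ends (50 bp), per the labels' protocols. STAR and RSEM are named per the submitters' processing notes; genome build and annotation are not given in the sources used here. The deposited values are TPM for 55414 genes, each column summing to the same total within rounding, so that depth is not known and counting intervals are left out. Strand use in counting is not stated, so genes that overlap others (among them Fam166a, Eef1a1, Jun, App, Manf, Hspe1, Serp1, Rpn1, Ccdc47, Avpr2, Fdps, Syne2, Mki67, Ube2c, Cox4i1, Jund and Tug1) are uncertain.

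Control clone columns were read through their titles. The 13334 genes averaging 1 TPM or more in the 11 libraries were fitted in R 4.3.3 by limma 3.58.1 (lmFit, eBayes with trend) on log2(TPM + 1), which understates changes of low genes, with Benjamini-Hochberg adjustment, unscaled and after median-ratio scaling (factors 0.417 to 0.464 in clones 6 to 8, 1.32 to 1.41 in the others). No pair of columns was identical. On simulated data for this contrast, 189 of 200 genes changed by 2 on the log2 scale were recovered among 13334 genes unscaled and 190 scaled. False calls made up 3.08% of the calls unscaled and 5.47% scaled. As many genes were raised as lowered and no other gene was changed, so the simulation does not cover a shift of most genes. Lengths and biotypes came from GENCODE M21 (GRCm38), which holds 52133 of the identifiers; 13184 tested genes have a length. Shares, lists and length classes are descriptions without a test. Named genes are Aqp2, Atf1, Creb1 and Crem, in each class the 2 most abundant members and those with the largest rise and fall, the 5 largest changes overall in each direction, and other list members with their values; Lars2, Serp1, Fam166a, Wfdc2, Mt1, Pkm and Actb were chosen after their values were seen. Some genes that this rule names are not reported here. The members and lists were chosen with earlier results of these data known. Alternatives were other scalings, pseudocounts, filters, variance models, reference clones and leaving out each library; coding length, the length-matched medians, and the reference and left-out libraries of the scaled and of the 9 to 11 against 1 to 5 comparisons were added after seeing the data.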

Additional observations from a re-analysis of the deposited data

Results flagged for a closer look

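In the 8 control clones outside 6 to 8, 1 library lay far from the others in 10 of 106 measures by Dixon's ratio; chance flags about 1 in 20 groups. The share of miRNA genes was 0% in clone 3 and 0.169% in the next lowest library. The share of processed pseudogenes was 0.855% in clone 3, with 0.607% next. Clone 3 also had the highest Atf1 (48.95 TPM, with 42.65 next), Manf (179.8 TPM, with 147.1 next) and Myc (207.4 TPM, with 167 next). App was highest in clone 1 (1676 TPM, with 1309 next) and Nom1 lowest there (27.5 TPM, with 36.88 next). Hsp90aa1 was lowest in clone 4 (687.7 TPM, with 919.2 next) and Psmb6 highest there (990.1 TPM, with 855.2 next). Rplp0 was highest in clone 5 (802 TPM, with 665.4 next). Groups of 3 were not examined in this way.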

How the results depend on the processing

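Median-ratio scaling and quantile normalization raised the genes called higher from 1820 to 4850 and 3865 and lowered those called lower from 9497 to 4529 and 5875. Leaving out 1 library gave 10925 to 11407 called genes (1689 to 1853 higher, 9185 to 9554 lower) and 8743 to 9423 after scaling. For clones 9 to 11 against 1 to 5 it gave 21 to 400 called genes (18 to 212 higher, 3 to 188 lower). The median change under 1 kb, 0.79 over all tested genes by longest transcript, was -0.95 with median transcript lengths. It was 1.44 in protein-coding genes and 2.04 after scaling. Scaling moved the medians of 1 to 2, 2 to 4, 4 to 8 and 8 or more kb to 0.54, -0.27, -0.29 and 0.16, and median transcript lengths that of 1 to 2 kb to -1.40. The cause was not tested.

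Of 77 named genes, 45 kept direction and call in every alternative and 25 reversed in at least 1. Under median-ratio scaling the reversed changes were Aqp2 0.87, Atf1 0.87, Atp5b 0.61, Cdh16 0.55, Crem 0.78, Eef1a1 0.69, Fdps 0.43, Hsp90ab1 0.98, Ier3 1.58, Jund 0.037, Mki67 0.21, Rpl4 0.69, Rplp0 1.63, Syne2 0.12, Top2a 0.36, mt-Co1 1.33, mt-Cytb 1.54 and mt-Nd5 0.78. Under quantile normalization they were Atf1 0.78, Crem 0.72, Eif1 -0.11, H2az1 -0.51, Hsp90aa1 -0.38, Ier3 1.18, Malat1 -0.18, Mki67 0.18, Psmb6 -0.061 and mt-Nd1 -0.82. Ier3 was 0.17 without ribosomal and mitochondrial genes in the total, 0.012 against clones 1 to 5, and -0.18 to 0.027 when 1 library was left out (above 0 without clone 4, 5, 7 or 11). Rpl3 was -0.13 and Rplp0 0.069 against clones 9 to 11, Rplp0 ran from -0.062 without clone 7 to 0.032 without clone 5, and mt-Cytb was 0.089 against clones 1 to 5.

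No paired analysis was possible because clones 6 to 8 share no replicate number with the other control clones. Depth is unknown, the 3 libraries limit precision, and group and library number coincide.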
